A study of Mus musculus with 4 samples.

Results

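The Hox genes are the homeobox transcription factors of 4 chromosomal clusters, and all probes that the array annotates with a name of Hox followed by a, b, c or d and a paralog number were taken. This gave 52 probes for 39 genes, of 56605 probes and 37069 gene names on the array, with 11 genes in the Hoxa cluster, 10 in Hoxb, 9 in Hoxc and 9 in Hoxd. The choice used names only and no measured value.

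Hox genes lie in each cluster in the order of their paralog numbers, and in the embryo that order follows the body axis, with low numbers expressed from the hindbrain backwards and high numbers only towards the tail. In hindbrain and spinal cord their products set the identity of neurons at each level, including the pools of motor neurons that serve neck, forelimb, trunk and hindlimb. Many of them stay expressed in the adult nervous system, where the combination that a tissue holds still reflects the axial level it came from.

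RNA was measured in spinal cord and in brainstem/cerebellum of transgenic mice, called MSA Tg mice by the submitters, and of wild-type mice, all aged 24 weeks. Multiple system atrophy (MSA) is a neurodegenerative disease in which alpha-synuclein accumulates in oligodendrocytes. Each of the 4 groups (transgenic spinal cord, wild-type spinal cord, transgenic brainstem/cerebellum and wild-type brainstem/cerebellum) was hybridised to 1 Agilent array in 1 colour, so nothing below has a replicate check and no test was possible. All groups shared a mixed strain background given as C57BL/6, 129 and C3H. The sample titles begin with PLP, which the labels do not spell out. The promoter that drives the transgene, the cells that express it and whether a sample was 1 animal or a pool are not given in the sources used here. The wild-type spinal cord array lay on a slide of its own, and the other 3 arrays shared a slide. Slide and genotype in spinal cord, and slide and tissue in wild type, therefore cannot be told apart.

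Promoter sequences are shown for 4 Hox genes that stand for both kinds of pattern described below: Hoxb4 and Hoxd4, with at most moderate differences between the tissues, and Hoxb8 and Hoxd8, with far higher signal in spinal cord. They are RefSeq promoters of build GRCm38.p6, all on the plus strand, each a window of 300 bases around the start of the gene, and capitals mark CpG.
Hoxb4, chr11:96318017-96318316: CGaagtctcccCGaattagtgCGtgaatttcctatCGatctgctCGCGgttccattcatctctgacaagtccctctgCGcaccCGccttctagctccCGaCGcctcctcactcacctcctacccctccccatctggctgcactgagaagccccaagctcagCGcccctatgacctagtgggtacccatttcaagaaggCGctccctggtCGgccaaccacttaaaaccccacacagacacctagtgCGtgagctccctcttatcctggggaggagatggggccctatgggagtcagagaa
Hoxd4, chr2:74721728-74722027: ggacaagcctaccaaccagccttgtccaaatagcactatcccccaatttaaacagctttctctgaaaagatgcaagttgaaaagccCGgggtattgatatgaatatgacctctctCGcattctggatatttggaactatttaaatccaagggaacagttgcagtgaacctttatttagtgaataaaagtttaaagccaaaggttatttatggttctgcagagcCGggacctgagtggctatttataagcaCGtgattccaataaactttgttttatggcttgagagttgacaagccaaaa
Hoxb8, chr11:96281655-96281954: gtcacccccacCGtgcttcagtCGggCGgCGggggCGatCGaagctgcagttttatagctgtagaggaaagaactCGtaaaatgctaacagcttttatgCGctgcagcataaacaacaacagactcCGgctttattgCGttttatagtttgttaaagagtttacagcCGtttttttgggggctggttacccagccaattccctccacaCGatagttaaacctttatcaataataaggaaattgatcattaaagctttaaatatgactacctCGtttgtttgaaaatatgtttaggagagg
Hoxd8, chr2:74704365-74704664: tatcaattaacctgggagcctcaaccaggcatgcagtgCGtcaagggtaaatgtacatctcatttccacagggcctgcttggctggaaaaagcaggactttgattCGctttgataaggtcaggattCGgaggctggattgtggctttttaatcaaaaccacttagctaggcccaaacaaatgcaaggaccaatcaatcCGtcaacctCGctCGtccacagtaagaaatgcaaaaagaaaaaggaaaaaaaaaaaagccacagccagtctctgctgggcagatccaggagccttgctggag
The Hoxb4 window held 14 CpG, the Hoxd4 window 4, the Hoxb8 window 13 and the Hoxd8 window 6. Of the 39 Hox genes, 22 had a promoter in the table, 24 promoters in all, with a median of 14.5 CpG (range 4 to 45), against a median of 7 over all 32841 promoters. The motif TGATTNAT, a site for Hox and Pbx proteins together, was found on either strand in 2 of the 24 (8.33%) and in 3.22% of all promoters. TATAAA was present in 4 (16.7%), Hoxb8 and Hoxd4 among them, and in 13.6% of all promoters. The homeodomain core TAATTA was present in 2 (8.33%) and in 5.29% of all promoters, and none of the 3 motifs contains another. A match is a description of these letters only.

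Values below are levels on a log2 scale, the processed signal of a probe relative to the 75th percentile of its array, which stood at a signal of 409.5 in transgenic spinal cord, 678.2 in wild-type spinal cord, 458.0 in transgenic brainstem/cerebellum and 436.8 in wild-type brainstem/cerebellum. Differences are log2 differences between 2 arrays for the same probe. Levels of different probes depend on the probe and are not set against each other. A probe counted as detected when the scanner software called it well above background, and a gene with several probes was read at its brightest probe over the 4 arrays. The lowest level of a detected probe was -5.29 and -5.76 in transgenic and wild-type spinal cord, and -5.40 and -5.23 in transgenic and wild-type brainstem/cerebellum. Where a gene was detected on 1 of 2 arrays, its difference is a bound against that limit or its own dim value, whichever was higher, and is given as "at least". Probes spotted several times, spike-in controls among them, gave a technical SD of a difference of 0.09 to 0.13 for levels above -2. For levels between -4 and -2 it was 0.24, from 11 probe and array pairs. Between -5 and -4 it was 0.55, from only 5 such pairs, and between -6 and -5 it was 0.81, from only 3. This technical SD covers spotting and scanning only, not animals or RNA extracts.

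The tissue labels were checked against marker genes. All 7 markers of cerebellar granule and Purkinje cells were at least 2-fold lower in spinal cord in both genotypes. Gabra6, a receptor subunit of granule cells, was not detected on either spinal cord array and stood at 4.03 in transgenic and 3.95 in wild-type brainstem/cerebellum. All 6 choroid plexus markers were lower in spinal cord as well. Of 19 transcription factors of midbrain, hindbrain and cerebellum, 12 were at least 2-fold lower in spinal cord in each genotype, and none was 2-fold higher. The forebrain factor Emx1 was detected on no array.

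Far more Hox genes were detected in spinal cord than in brainstem/cerebellum. The count was 33 of 39 in transgenic and 34 in wild-type spinal cord, against 22 in transgenic and 19 in wild-type brainstem/cerebellum. The share of all spots detected was 60.9% and 64.0% in spinal cord and 61.7% and 59.2% in brainstem/cerebellum, with transgenic before wild type in each pair. In wild type it was thus higher in spinal cord, and in transgenic mice slightly lower. The arrays with the most and the fewest Hox genes, both wild type, also had the highest and the lowest share of spots. The part of this in the Hox counts was not tested. Genes of paralog groups 1 to 4 were seen in both tissues: 11 of 12 on each spinal cord array, against 11 in transgenic and 10 in wild-type brainstem/cerebellum. Of the 11 genes in groups 5 to 8, all were detected on both spinal cord arrays, against 9 in transgenic and 8 in wild-type brainstem/cerebellum. Of the 16 genes in groups 9 to 13, 11 were detected in transgenic and 12 in wild-type spinal cord, against 2 and 1 in transgenic and wild-type brainstem/cerebellum.

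**Figure D1:**
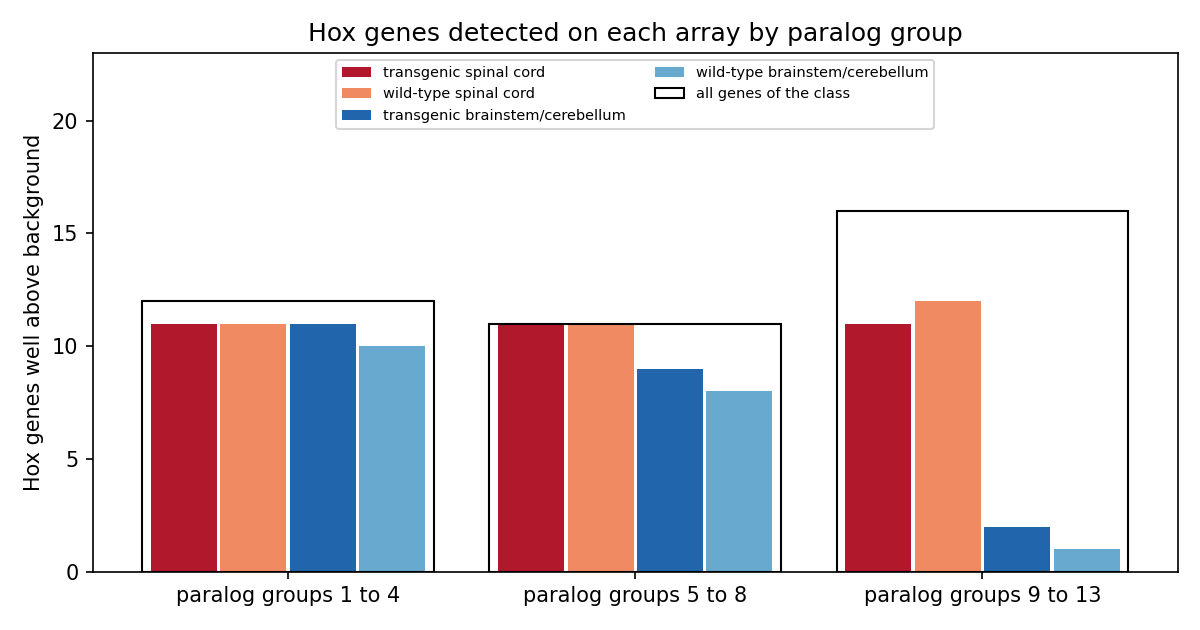
Number of Hox genes well above background (vertical axis, genes) on each of the 4 arrays, 1 array per group, by class of paralog groups; outlined boxes give all genes of the class. The bars of groups 1 to 4 stand at 10 or 11 on every array, while those of groups 9 to 13 stand at 11 and 12 in spinal cord and at 2 and 1 in brainstem/cerebellum.

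In both genotypes, most Hox genes were higher in spinal cord than in brainstem/cerebellum, and none was 2-fold lower. In transgenic mice, 18 of 33 detected genes were at least 2-fold higher in spinal cord, bounds counted, where 9.97% of all detected genes were higher and 7.21% lower by that rule. In wild-type mice, 23 of 34 were at least 2-fold higher, where 8.73% of all genes were higher and 5.01% lower. Over genes detected on both arrays compared, the counts were 9 of 22 higher and none lower in transgenic mice (9.07% and 6.1% of all genes), and 10 of 19 higher and none lower in wild type (7.85% and 4.3% of all genes). With scaling on the spike-in controls, 5.90% of all genes were higher and 14.2% lower in transgenic spinal cord by the rule with bounds. The median difference over Hox genes detected on both arrays was 0.74 in transgenic and 1.03 in wild-type mice, against -0.02 and 0.00 over all genes. In bulk tissue, more cells that express a gene and more RNA per cell cannot be told apart.

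At the brightest probes, differences of 2-fold in both genotypes began at paralog group 6. All 17 detected genes of groups 6 to 11, out of 18, were at least 2-fold higher in spinal cord in both genotypes, with differences and bounds from 1.90 to 7.44 in transgenic and from 1.53 to 8.28 in wild-type mice. None of the 14 detected genes of groups 1 to 5, out of 15, was so in both genotypes: 1 passed in transgenic mice alone and 5 in wild type alone, with differences and bounds from -0.06 to 1.52 and from 0.22 to 2.05. Of the 6 genes in groups 12 and 13, 3 were detected on any array. The share of all genes 2-fold higher in both genotypes was not counted. Taken singly it was 9.97% in transgenic and 8.73% in wild-type mice, bounds counted. This split by paralog group was drawn after the values had been seen, so it is a description. It also depended on probe and processing. The second Hoxb2 probe passed 2-fold in both genotypes, at 1.36 in transgenic and 1.09 in wild-type mice. Under other settings, the lowest values were 0.71 in transgenic and 0.28 in wild-type mice for Hoxa6 and 0.99 and 0.65 for Hoxd10. For Hoxc11 the lowest value in wild type was 0.89. Over the 19 genes detected on all 4 arrays, paralog number and tissue difference had a Pearson correlation of 0.69 in transgenic and 0.66 in wild-type mice (Spearman 0.59 and 0.69), with the same 2 arrays behind every point of a genotype.

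**Figure D2:**
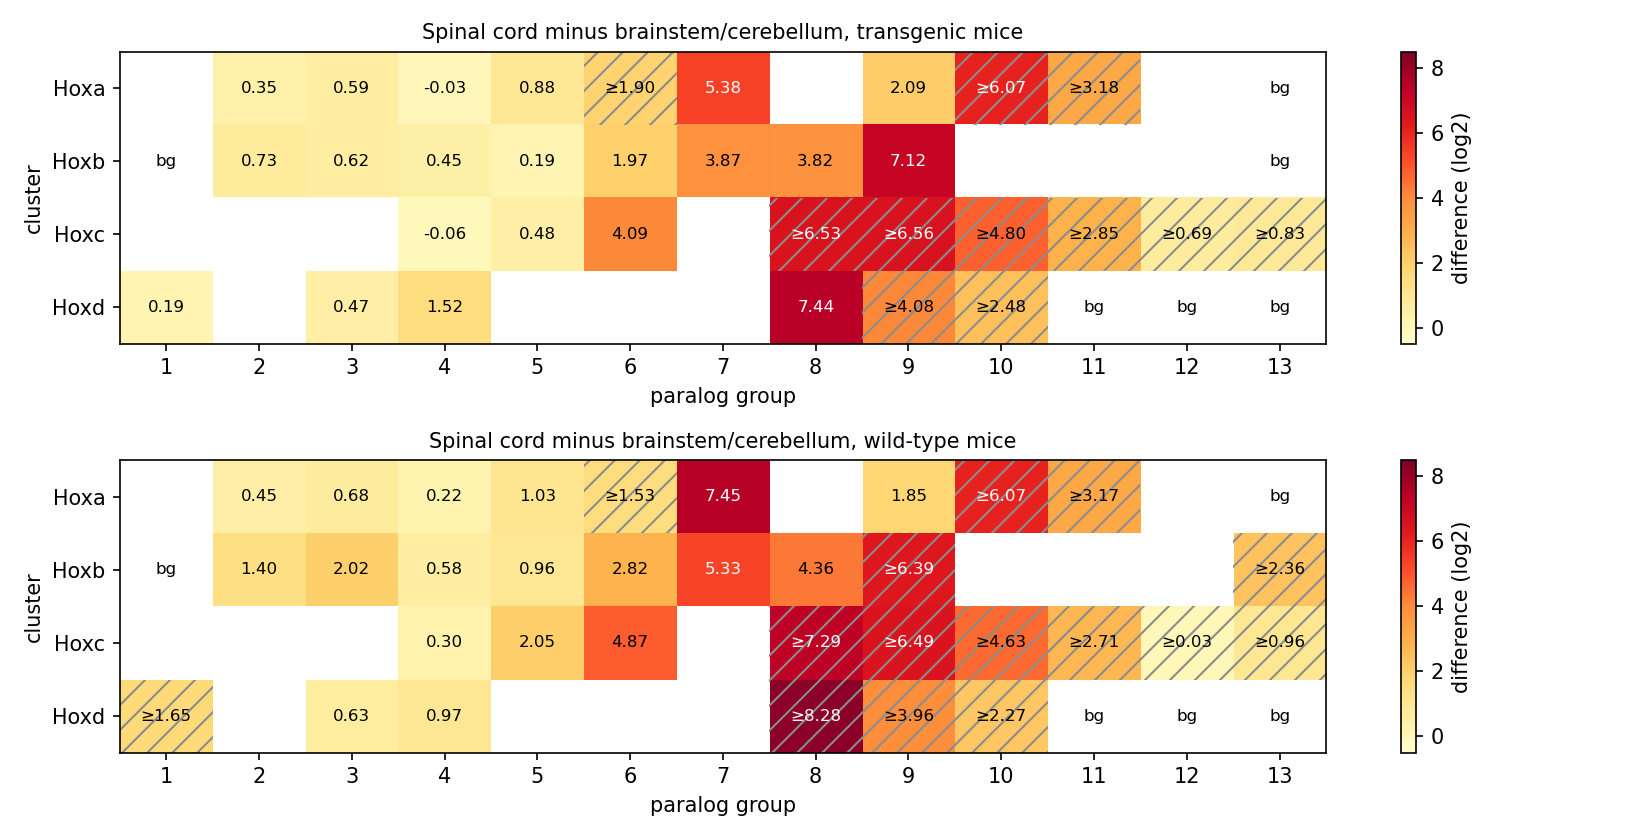
Log2 difference of spinal cord minus brainstem/cerebellum for Hox genes, with clusters as rows and paralog groups as columns, in transgenic mice (upper grid) and wild-type mice (lower grid), from 1 array per group. Hatched cells with ≥ are bounds, bg marks genes detected on neither array and empty cells have no value shown; dark cells lie in groups 6 to 11 in both grids, and groups 1 to 5 stay between -0.06 and 2.05.

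Group 1 to 3 genes pattern the hindbrain in the embryo, and Hoxb1, which acts in hindbrain segments, was detected on no array. Hoxa2, which specifies the second pharyngeal arch and hindbrain segments, stood at -2.34 and -2.10 in spinal cord, against -2.69 and -2.55 in brainstem/cerebellum, transgenic first in each pair. Tissue differences of Hoxa2 were 0.35 in transgenic and 0.45 in wild-type mice, so the spinal cord array was slightly higher in both, while with other settings the sign in transgenic mice did not hold.

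Hoxb2, a regulator of facial motor neuron development, had levels of -0.45 and 0.35 in transgenic and wild-type spinal cord, against -1.19 and -1.05 in transgenic and wild-type brainstem/cerebellum. The wild-type spinal cord array was the highest, which made the tissue difference 0.73 in transgenic and 1.40 in wild-type mice. A second, dimmer Hoxb2 probe gave 1.36 and 1.09.

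Among group 3 genes, which act in the caudal hindbrain and the neck, Hoxa3 stood at 0.00 in transgenic and 0.15 in wild-type spinal cord, against -0.59 and -0.52 in transgenic and wild-type brainstem/cerebellum. Hoxd3 stood at -2.83 and -2.38 in transgenic and wild-type spinal cord, against -3.30 and -3.01 in transgenic and wild-type brainstem/cerebellum. Both were higher in spinal cord in each genotype, at 0.59 and 0.68 for Hoxa3 and 0.47 and 0.63 for Hoxd3, transgenic first. A second, dimmer Hoxa3 probe gave 0.17 in transgenic mice and at least 1.56 in wild type.

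Hoxb3 stood at -2.27 in transgenic and -0.81 in wild-type spinal cord, against -2.89 and -2.83 in transgenic and wild-type brainstem/cerebellum. Again the wild-type spinal cord array stood apart from the other 3, and the tissue difference was 0.62 in transgenic and 2.02 in wild-type mice. The 3 Hoxb3 probes disagreed by over 2-fold: their tissue differences ran from -0.54 to 0.62 in transgenic and from 0.99 to 2.02 in wild-type mice.

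Hoxd1 was near the limit of detection on 3 arrays. Its levels were -5.08 in transgenic and -3.58 in wild-type spinal cord and -5.28 in transgenic brainstem/cerebellum, and its signal of -5.41 in wild-type brainstem/cerebellum was not well above background. The tissue difference was 0.19 in transgenic mice, with a technical SD of 0.81, and at least 1.65 in wild type.

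Group 4 genes mark the junction of hindbrain and spinal cord, and all 4 were detected on every array. Hoxa4 stood at -2.66 and -2.45 in transgenic and wild-type spinal cord, against -2.63 and -2.68 in transgenic and wild-type brainstem/cerebellum, and Hoxc4 at 0.63 and 1.35, against 0.69 and 1.05. Hoxb4, whose promoter is printed above, stood at 0.14 and 0.91 in transgenic and wild-type spinal cord, against -0.30 and 0.33 in transgenic and wild-type brainstem/cerebellum. The tissue differences of these 3 genes lay between -0.06 and 0.58. Hoxd4 differed more: it stood at 0.44 and -0.09 in transgenic and wild-type spinal cord, against -1.08 and -1.05 in transgenic and wild-type brainstem/cerebellum, a difference of 1.52 in transgenic and 0.97 in wild-type mice.

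**Figure D3:**
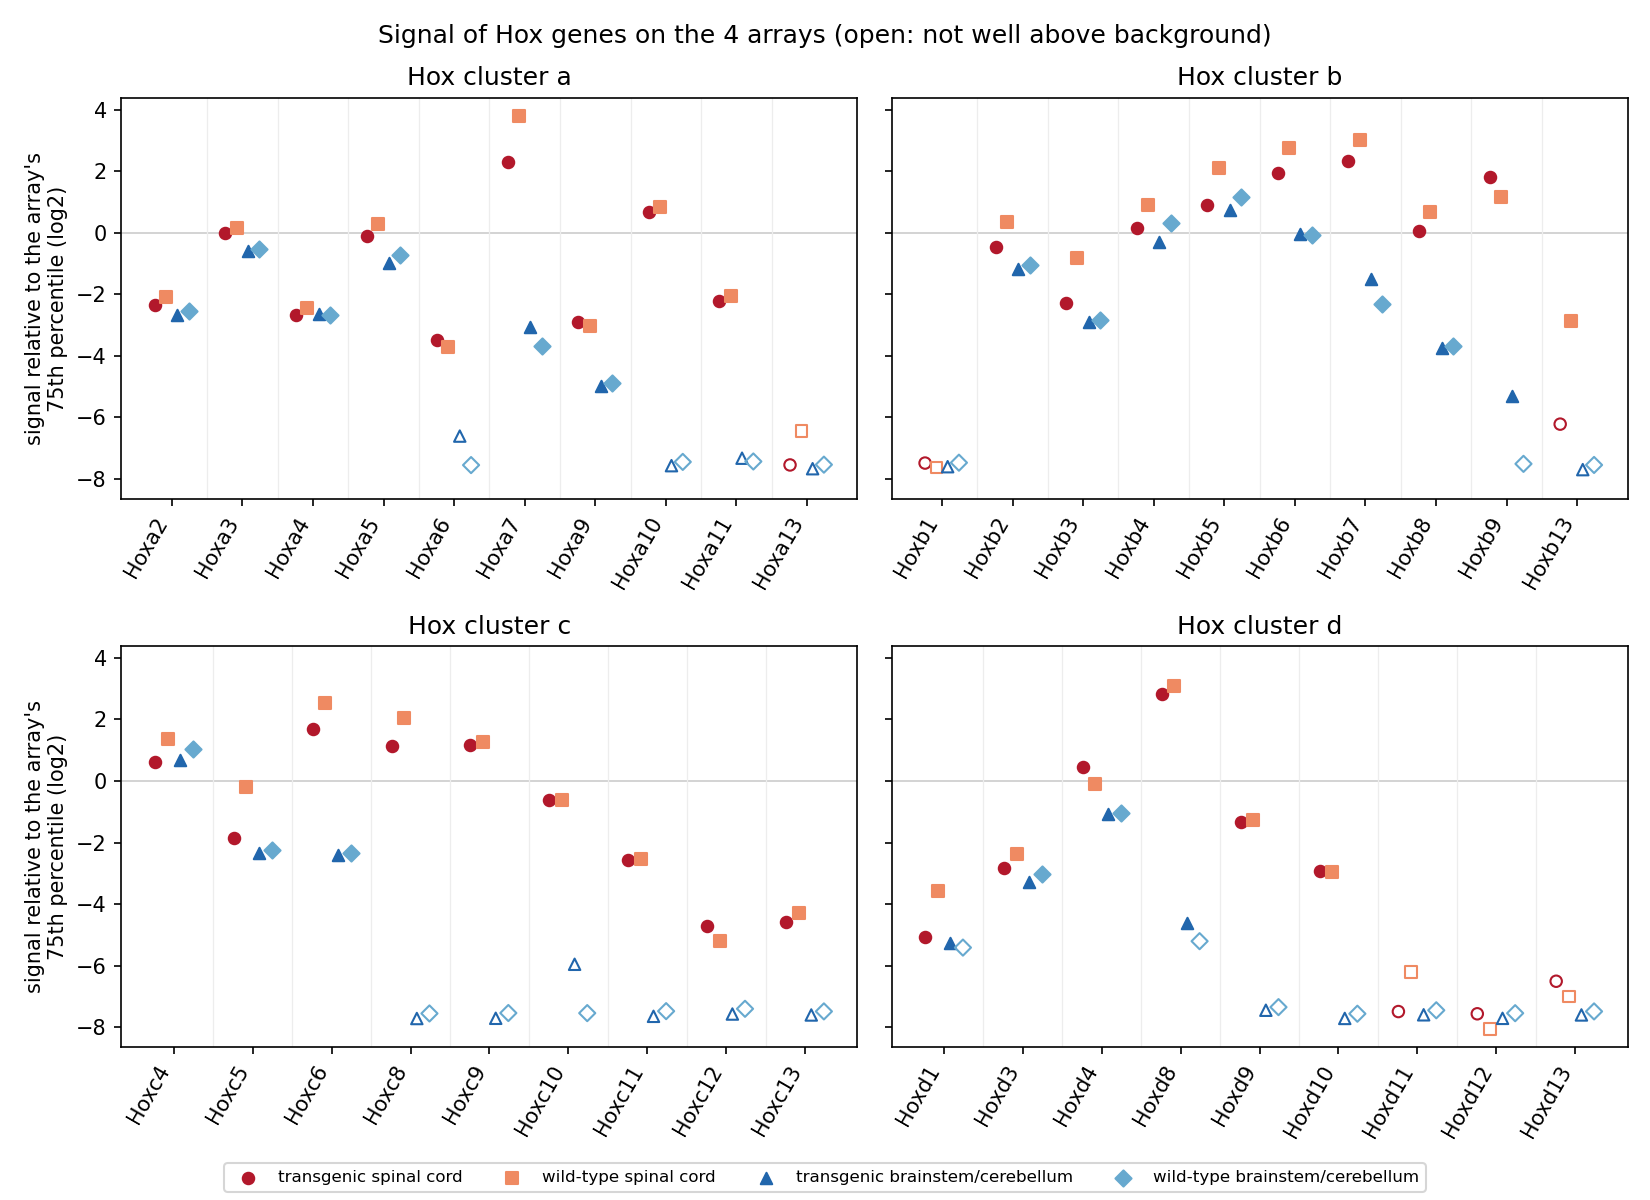
Level of Hox genes (log2 signal relative to the 75th percentile of its array) on the 4 arrays, 1 point per array, by cluster and paralog number; open symbols were not well above background. Within a gene the points can be compared, and from group 6 on the spinal cord points lie above both brainstem/cerebellum points wherever a spinal cord point is filled.

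Group 5 genes, active in cervical spinal cord and, for Hoxa5 and Hoxc5, in the motor neurons of the diaphragm, were detected on all arrays. Hoxa5 stood at -0.09 and 0.30 in transgenic and wild-type spinal cord, against -0.97 and -0.73 in transgenic and wild-type brainstem/cerebellum, a difference of 0.88 and 1.03. Hoxb5 stood at 0.91 in transgenic and 2.11 in wild-type spinal cord, against 0.73 and 1.15 in transgenic and wild-type brainstem/cerebellum. Hoxc5 stood at -1.86 in transgenic and -0.19 in wild-type spinal cord, against -2.34 and -2.24 in transgenic and wild-type brainstem/cerebellum. For Hoxb5 and Hoxc5 the tissue difference was 0.19 and 0.48 in transgenic mice and 0.96 and 2.05 in wild type, and in both genes the wild-type spinal cord array was the high one.

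From group 6 the tissues parted. Hoxc6, a determinant of forelimb motor columns, stood at 1.67 and 2.53 in transgenic and wild-type spinal cord, against -2.42 and -2.33 in transgenic and wild-type brainstem/cerebellum, which is 17.0-fold higher in transgenic and 29.2-fold higher in wild-type spinal cord. Hoxb6 stood at 1.94 and 2.75 in transgenic and wild-type spinal cord, against -0.03 and -0.07 in transgenic and wild-type brainstem/cerebellum, or 3.91-fold and 7.06-fold higher. Hoxa6 was detected in spinal cord only, at -3.50 in transgenic and -3.70 in wild-type mice, against signals of -6.61 and -7.55 not well above background in transgenic and wild-type brainstem/cerebellum, which puts it at least 3.74-fold and 2.88-fold higher there. In all 3 genes both spinal cord arrays stood above both brainstem/cerebellum arrays. That order also held for every detected gene of groups 1 to 5 except Hoxa4, Hoxb4, Hoxc4 and Hoxb5. It does not by itself set group 6 apart. The share of all genes with that order was not counted.

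Group 7 had the largest difference measured with both arrays detected in wild type. Hoxa7 (probe at chr6:52165626-52165685 in build mm9) stood at 2.30 in transgenic and 3.79 in wild-type spinal cord, against -3.08 and -3.67 in transgenic and wild-type brainstem/cerebellum. The spinal cord was 41.7-fold higher in transgenic and 175-fold higher in wild-type mice. Hoxb7 stood at 2.35 and 3.01 in transgenic and wild-type spinal cord, against -1.52 and -2.32 in transgenic and wild-type brainstem/cerebellum, or 14.6-fold and 40.3-fold higher. Both genes were well above background in brainstem/cerebellum as well, so these are measured differences in bulk signal and not bounds.

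Among group 8 genes, Hoxb8, which acts in dorsal spinal cord and in a lineage of microglia, stood at 0.07 and 0.69 in transgenic and wild-type spinal cord, against -3.75 and -3.67 in transgenic and wild-type brainstem/cerebellum. Hoxc8, needed for forelimb motor pools, stood at 1.12 and 2.06 in transgenic and wild-type spinal cord and was not detected in brainstem/cerebellum, with signals of -7.72 and -7.56. Hoxd8 stood at 2.83 and 3.08 in transgenic and wild-type spinal cord, against -4.61 in transgenic brainstem/cerebellum and -5.21, not well above background, in wild type. Spinal cord was higher by 14.1-fold and 20.6-fold for Hoxb8, by at least 92.1-fold and 157-fold for Hoxc8, and by 174-fold and at least 311-fold for Hoxd8, transgenic before wild type. A second Hoxd8 probe was detected in spinal cord only and gave bounds of 5.79 and 6.24 on the log2 scale.

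Genes of groups 9 to 11 specify thoracic, lumbar and sacral levels, and 9 of the 16 genes of groups 9 to 13 were detected on both spinal cord arrays and on neither brainstem/cerebellum array. Of all genes on the array, 1.05% were detected this way, or 1.59% of those detected on any array. The undetected signals of those genes in brainstem/cerebellum lay between -7.72 and -5.96. Hoxc9, which sets the thoracic motor columns, stood at 1.16 and 1.26 in transgenic and wild-type spinal cord, a bound of at least 94.4-fold and 89.9-fold over brainstem/cerebellum. Hoxb9 stood at 1.82 and 1.16 in transgenic and wild-type spinal cord and at -5.30 in transgenic brainstem/cerebellum, just above the limit there, and was not well above background in the wild-type array of that tissue. It was 139-fold higher in spinal cord of transgenic and at least 83.9-fold higher in that of wild-type mice. Hoxd9 stood at -1.32 and -1.27 in transgenic and wild-type spinal cord, at least 16.9-fold and 15.6-fold above brainstem/cerebellum.

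Hoxa9 was the only gene of groups 9 to 13 whose brightest probe was detected on all 4 arrays, and here the probe mattered. That probe spans a gap of 1045 bases in the genome in the array's mapping, as a probe across a splice junction does, while the other probe of the same RefSeq transcript lies in 1 block. Both are 60-base probes from the array, on the minus strand in build mm9:
Hoxa9 probe across the gap, chr6:52174477-52175581: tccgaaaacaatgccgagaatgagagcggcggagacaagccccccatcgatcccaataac
Hoxa9 probe in 1 block, chr6:52174227-52174286: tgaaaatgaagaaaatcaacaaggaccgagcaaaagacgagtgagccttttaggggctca
The first stood at -2.89 and -3.03 in transgenic and wild-type spinal cord, against -4.98 and -4.88 in transgenic and wild-type brainstem/cerebellum, or 4.25-fold and 3.60-fold higher. The other probe stood at -1.25 and -1.29 in spinal cord and was not well above background in brainstem/cerebellum, with bounds of at least 4.15 and 3.95 on the log2 scale, transgenic first. The low Hoxa9 signal in brainstem/cerebellum was thus seen by 1 of the 3 Hoxa9 probes, since the remaining one, annotated with another transcript, was not detected there either.

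The lumbar determinants of group 10 were absent from the detected genes of brainstem/cerebellum. Hoxa10 stood at 0.67 and 0.84 in transgenic and wild-type spinal cord, at least 67.2-fold and 67.3-fold above brainstem/cerebellum. Hoxc10 stood at -0.60 and -0.61, at least 27.8-fold and 24.7-fold above, and Hoxd10 at -2.92 and -2.96, at least 5.59-fold and 4.82-fold above. Each gene had nearly the same level in the spinal cords of both genotypes.

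In group 11, Hoxa11 stood at -2.22 and -2.07 in transgenic and wild-type spinal cord and Hoxc11 at -2.55 and -2.52, with bounds of at least 9.09-fold and 8.97-fold for Hoxa11 and 7.19-fold and 6.54-fold for Hoxc11. Hoxd11 was detected on no array. Of groups 12 and 13, which act at the tail end of the axis, in limbs and in the urogenital tract, Hoxc12 and Hoxc13 were faint in both spinal cords, between -5.20 and -4.27, and Hoxb13 was detected in wild-type spinal cord alone, at -2.87. Hoxa13, Hoxd12 and Hoxd13 were detected on no array. With Hoxb1 and Hoxd11 they make 5 genes with no signal above background, which says only that it was not detectable with these probes.

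Genes seen in spinal cord only were counted by cluster. Of 9 Hoxc genes, 6 were detected on both spinal cord arrays and on neither brainstem/cerebellum array, against 3 of 11 in Hoxa, none of 10 in Hoxb and 2 of 9 in Hoxd, where the share of all genes was 1.05%. In Hoxb, 7 genes were detected on all 4 arrays, up to Hoxb8, and in Hoxc 3 were, up to Hoxc6. These counts rest on the brightest probe of each gene. The second probes of Hoxb8 and Hoxb9 were detected on both spinal cord arrays and on neither brainstem/cerebellum array. Whether clusters differ could not be tested with 1 array per group.

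Levels of other cell types moved with the tissues. The summed linear signal of 5 Schwann cell markers, relative to the 75th percentile, was 6.80 in transgenic and 19.6 in wild-type spinal cord, against 0.87 and 1.02 in transgenic and wild-type brainstem/cerebellum. That of 6 markers of cholinergic and motor neurons was 11.4 and 18.0 in spinal cord, against 5.58 and 8.003, and that of 8 skeletal muscle markers was 1.54 and 3.24, against 0.36 and 0.35, transgenic first in each pair. Of 6 markers of dorsal root ganglion neurons, Scn10a, Trpv1 and Mrgprd were detected on no array, Scn11a was on 3 arrays, and Avil and Calca on all 4. The summed signal of these 6 was 4.27 in transgenic and 10.98 in wild-type spinal cord, against 4.196 and 5.23 in transgenic and wild-type brainstem/cerebellum. The part of these cell types in the Hox differences between tissues was not tested.

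In spinal cord, 6 of 34 detected Hox genes were at least 2-fold lower in transgenic than in wild-type mice and none was 2-fold higher, bounds counted. By the same rule 8.44% of all genes were lower and 9.03% higher. Among genes detected on both arrays, 5 of 33 were lower (7.83% of all genes) and none was higher (7.81% of all genes). With scaling on the spike-in controls, 13 Hox genes were lower, bounds counted, where 18.1% of all genes were lower and 5.76% higher. The difference was below 0 for 25 of the 33 and above 0 for 8. Its median was -0.25, against -0.06 over all genes. The Hox median was -0.61 with spike-in scaling, -0.66 over genes detected on all 4 arrays and -0.10 with normexp, where that of all genes was -0.42, -0.07 and 0.05.

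The genes that were 2-fold lower in transgenic spinal cord were Hoxb3, Hoxb5, Hoxc5, Hoxa7, Hoxd1 and, as a bound, Hoxb13. With the levels given above, the difference was -1.67 for Hoxc5, 3.19-fold lower, and -1.48 for Hoxa7, 2.80-fold lower. It was -1.46 for Hoxb3 and -1.20 for Hoxb5, 2.76-fold and 2.29-fold lower, with technical SDs of 0.19 and 0.10. For Hoxd1 the difference was -1.503 with a technical SD of 0.60. Hoxb13 stood at -6.22, not well above background, in transgenic and at -2.87 in wild-type spinal cord, and was at least 5.32-fold lower in transgenic mice. With normexp background correction, Hoxd1 and Hoxb13 no longer passed 2-fold, at -0.10 and -0.61. In Hoxc5, Hoxb3, Hoxb5, Hoxd1 and Hoxb13 the wild-type spinal cord array, on a slide of its own, was the odd one out. The transgenic spinal cord array was closer to the brainstem/cerebellum arrays in these genes. In Hoxa7 both spinal cord arrays stood far above both brainstem/cerebellum arrays.

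The genotype differences in spinal cord were lowest in the middle of the clusters. Here genes are counted by sign alone, without the 2-fold threshold. In groups 5 to 8, 10 of 11 genes were below 0, with a median difference of -0.81, and in groups 1 to 4, 9 of 11 were, with a median of -0.45. In groups 9 to 13, 6 were below 0 and 5 above, with a median of -0.03. The share of all genes below 0 was not counted, and their median was -0.06, or -0.42 with spike-in scaling. The median of groups 9 to 13 changed sign with the background correction: it lay between -0.39 and 0.15 over the scalings, probe choices and corrections tried, while that of groups 5 to 8 lay between -1.18 and -0.74. That of groups 1 to 4 lay between -0.82, with spike-in scaling, and -0.06, with normexp background correction. Differences of the group 10 and 11 genes ran from -0.17 to 0.05.

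The highest differences, transgenic over wild type, were 0.66 for Hoxb9, 0.52 for Hoxd4, 0.49 for Hoxc12 and 0.21 for Hoxa6. The second Hoxb9 probe ran the other way, at -0.54, and the second Hoxb2 probe gave 0.33 where the brighter one gave -0.80, so neither gene has a settled direction. Hoxc12 was faint, with a technical SD of 0.70, and for Hoxa6 the difference was within 1 technical SD of 0.24 and changed sign with spike-in scaling.

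**Figure D4:**
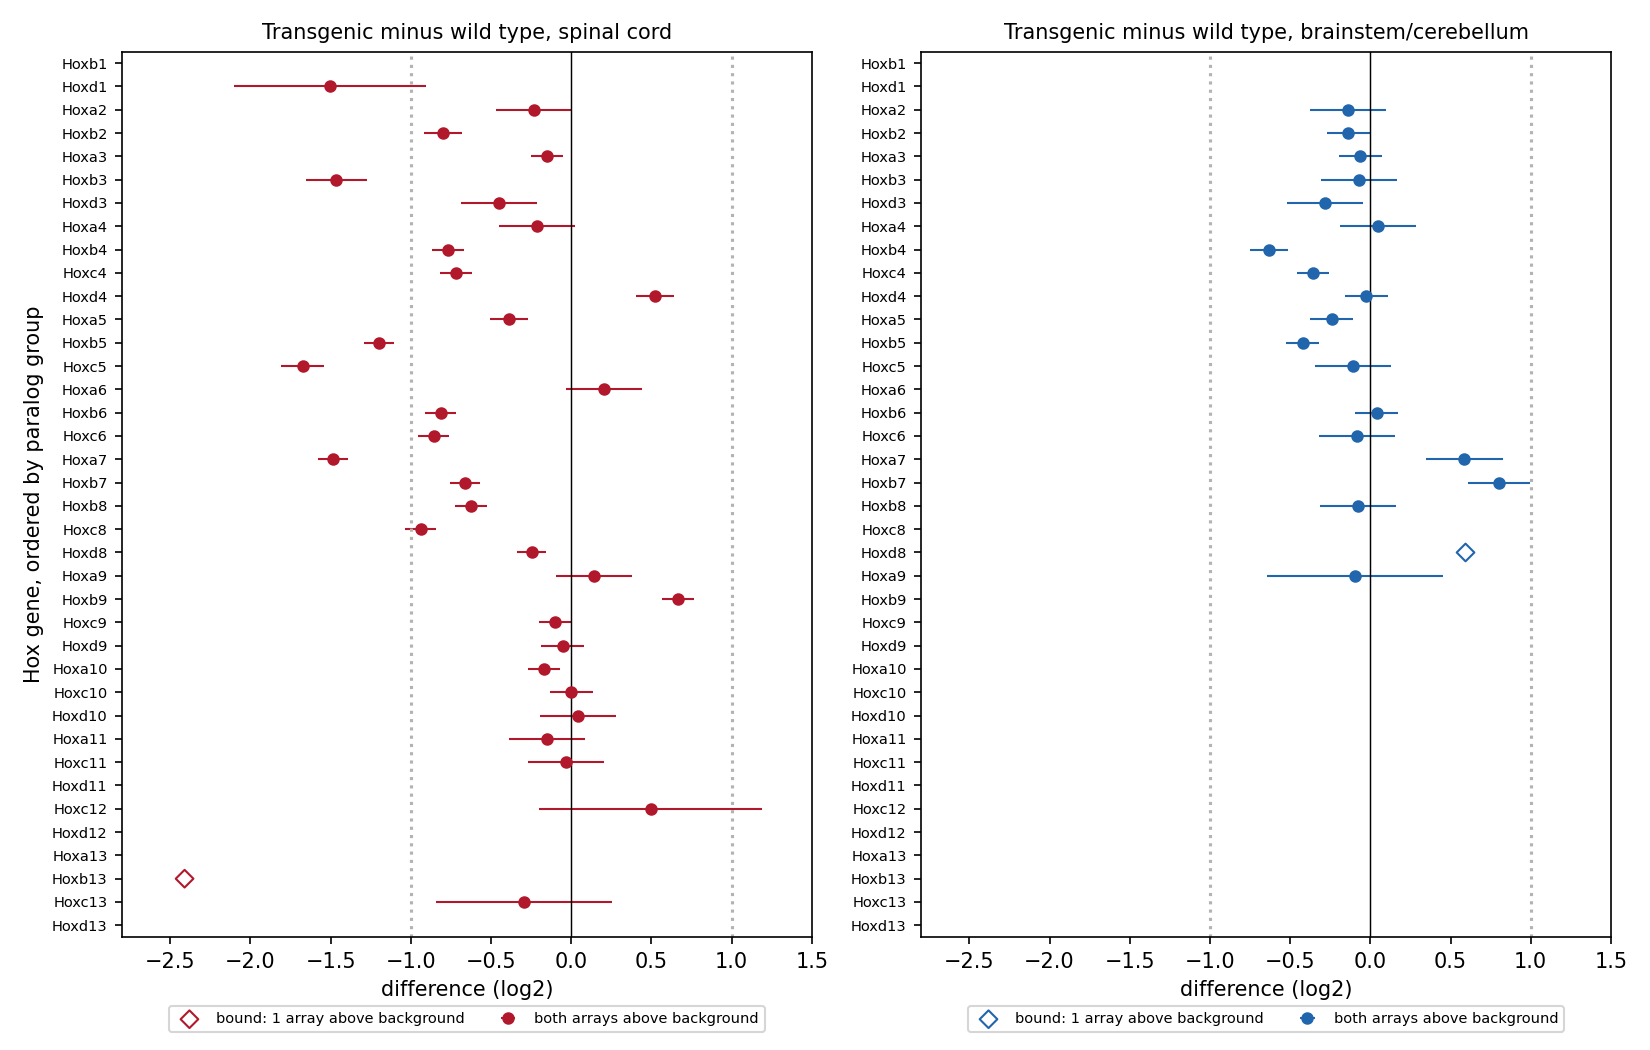
Log2 difference of transgenic minus wild type for Hox genes, ordered by paralog group, in spinal cord (left) and brainstem/cerebellum (right). Points are genes detected on both arrays, with bars of 1 technical SD of a difference, open diamonds are bounds and dotted lines mark 2-fold; in spinal cord 25 points lie below 0, and in brainstem/cerebellum no point passes 2-fold.

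Several markers of peripheral tissue and of neurons were lower in transgenic spinal cord as well. Of the 4 detected Schwann cell markers, 3 were at least 2-fold lower in transgenic mice, as were 3 of 8 skeletal muscle markers. The summed signals of these lists are given above. Calca, a neuropeptide gene of sensory and motor neurons, had a genotype difference of -1.45, and Slc6a5, the glycine transporter of glycinergic neurons, one of -1.43. Avil, on the same sensory neuron list as Calca, ran the other way at 1.84. The summed signal of 3 markers of glycinergic neurons was 77.8 in transgenic and 123.6 in wild-type spinal cord. All 6 markers of cholinergic and motor neurons were below 0, though none was called 2-fold lower. Of these, Mnx1 was not detected in transgenic spinal cord. Its bound of -0.93 does not show whether the difference passes 2-fold. The summed signal of 6 microglia and macrophage markers was 198 in transgenic and 70.2 in wild-type spinal cord, and 5 of the 6 were at least 2-fold higher in transgenic mice. The part of these cell types, and of the separate slide, in the Hox differences was not tested.

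In brainstem/cerebellum, no Hox gene was called 2-fold different between genotypes. None of 22 detected genes was called higher and none lower, bounds counted, where 3.50% of all genes were higher and 0.678% lower. For 3 of the 22, Hoxd8, Hoxb9 and Hoxd1, detected in transgenic mice alone, the bounds do not show whether the difference passes 2-fold. With the laxer detection flag (positive and significant signal), 2 genes were higher, where 7.77% of all genes were. With scaling on the median of each array, 2.67% of all genes were higher and 1.09% lower. No test underlies these counts, since each group had 1 array. The 19 genes detected on both arrays also gave none higher and none lower (2.45% and 0.298% of all genes), and 15 were below 0 and 4 above, with a median of -0.10, against -0.05 over all genes.

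The 5 lowest differences were -0.63 for Hoxb4, -0.42 for Hoxb5, -0.36 for Hoxc4, -0.28 for Hoxd3 and -0.24 for Hoxa5. The highest were 0.80 for Hoxb7 and 0.59 for Hoxa7, with technical SDs of 0.19 and 0.24, and a bound of at least 0.59 for Hoxd8. Hoxa4 and Hoxb6 followed at 0.05 and 0.04, and both changed sign under other scalings. Hoxb7 stood at -1.52 in transgenic and -2.32 in wild-type brainstem/cerebellum, and Hoxa7 at -3.08 and -3.67, so both were higher in transgenic mice here and lower in transgenic spinal cord. The summed signal of the microglia and macrophage markers was 66.0 in transgenic and 43.3 in wild-type brainstem/cerebellum, with 4 of 6 at least 2-fold higher in transgenic mice, and its part in these differences was not tested.

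The tissue difference was smaller in transgenic than in wild-type mice for 16 of the 19 genes detected on all 4 arrays, with transgenic minus wild-type values from -2.07 to 0.55. Hoxa7 had the lowest value, and Hoxd4 the highest. The share of all genes with a smaller tissue difference in transgenic mice was not counted. Both tissue differences rest on 1 array each and share the arrays of the genotype comparisons, so this restates the same 4 measurements.

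Hox proteins bind DNA with partners of the TALE class, and the 9 Pbx, Meis and Pknox genes were detected on every array. None of the 9 reached 2-fold in any comparison, and their median tissue difference was -0.19 in transgenic and -0.15 in wild-type mice. Meis1 stood at 1.51 and 1.74 in transgenic and wild-type spinal cord, against 2.42 and 2.61 in transgenic and wild-type brainstem/cerebellum, so it was lower in spinal cord, opposite to most Hox genes. Pbx3 had a genotype difference of -0.73 in spinal cord.

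Of 15 regulators that act upstream of Hox genes in the embryo, 4 were at least 2-fold higher and 2 lower in spinal cord of transgenic mice, and 2 were higher and 1 lower in wild type. Aldh1a2, which makes retinoic acid, was higher in spinal cord by 1.33 in transgenic and 1.75 in wild-type mice, and Cyp26b1, which degrades it, had tissue differences of -1.24 in transgenic and -2.74 in wild-type mice. Egr2, a hindbrain segment gene that also serves Schwann cells and macrophages, was higher in spinal cord by 3.04 and 2.01 and higher in transgenic than wild-type mice by 1.05 in brainstem/cerebellum and 2.09 in spinal cord. Cdx1, Cdx2, Cdx4, Cyp26a1 and Cyp26c1 were detected on no array.

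Polycomb and trithorax proteins keep Hox genes silent or active through cell division, and all 21 of their listed genes were detected on all arrays. In transgenic mice Cbx2 and Pcgf2, both subunits of Polycomb complex PRC1, passed 2-fold with less signal in spinal cord. In wild-type mice the genes that did were Ezh2, a histone methyltransferase of Polycomb, and its partner Jarid2. Ezh2 had tissue differences of -0.74 in transgenic and -1.19 in wild-type mice. Pcgf2 ran opposite ways, at -1.07 in transgenic and 1.11 in wild-type mice. Its probe was faint, at -5.17 in transgenic spinal cord, near the limit of -5.29 there, and at -4.10 and -4.57 in transgenic and wild-type brainstem/cerebellum. The technical SD is large at such levels, so its differences are uncertain. In spinal cord, Cbx7, another PRC1 subunit, and Pcgf2 had genotype differences of -1.40 and -1.71, and the other 19 stayed within 2-fold.

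Most detected non-coding RNAs from inside the Hox clusters were higher in spinal cord. Of 14 listed, 10 had a probe, 8 were detected in spinal cord and 6 in brainstem/cerebellum in each genotype, and 6 were at least 2-fold higher in spinal cord of transgenic and 7 in that of wild-type mice, with none lower. Mira, transcribed beside Hoxa6 and Hoxa7, stood at 2.61 and 3.49 in transgenic and wild-type spinal cord, against -3.03 and -3.10 in transgenic and wild-type brainstem/cerebellum. The array annotates its probe and the Hoxa7 probe with a shared transcript, so both may read the same RNA. Hoxa11os, antisense to Hoxa11, was higher by 2.91 and 2.87, and Hoxd3os1 by at least 3.005 and 3.31, transgenic first. Haglr, from the Hoxd cluster, was higher by 0.66 in transgenic and 2.07 in wild-type mice and differed by -1.30 between genotypes in spinal cord.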

How the data were processed

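Total RNA was labelled with Cy3 and hybridised to 1 array per sample, per the labels' protocols. The scanner files deposited by the authors give the linear intensity of each spot, from Agilent Feature Extraction, version 10.7.1.1 per the file headers and 9.5.1.1 per the submitters' processing notes. Per the file headers, probe positions refer to build mm9. The authors' table of processed values is also an intensity on a linear scale. Its normalization was not stated in the labels or headers, and it served as an alternative.

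From the processed intensity, log2 was taken and the 75th percentile of each array, over non-control spots without outlier flag, was subtracted (Python 3.11.15, pandas 2.3.3). The share of spots well above background was 59.2% to 64.0% of 59305, and none was saturated. Low signals limit precision: bounds depend on the lowest detected signal. Genes were grouped by the array's gene names, at the brightest probe, and 2-fold was the threshold. The technical SD came from 300 probes with 10 spots each, pooled with spike-in control probes spotted several times.

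Named were genes 2-fold different between tissues in both genotypes, detected genes of groups 1 to 4, the 5 largest genotype differences each way per tissue, genes whose probes disagreed by 2-fold and up to 4 members of each further list. The Hox genes, lists and rules were chosen with earlier results of these data known. Alternatives were scaling on the median, quantile normalization, spike-in controls, normexp with an offset of 50 (limma 3.58.1), the authors' values, the mean of probes, 2 other detection filters, outlier spots kept, and thresholds of 1.5-fold and 3-fold. The computation was tested on simulated data. With 1 array per group there was no test and no slide term. Some genes that these rules name are counted but not reported by name here or in the figures.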

Additional observations from a re-analysis of the deposited data

Results flagged for a closer look

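Hoxa7 and Hoxb7, the paralog group 7 genes, differed between genotypes in opposite directions in the 2 tissues, each time by over 2 technical SDs. For Hoxa7, transgenic minus wild type was -1.48 in spinal cord and 0.59 in brainstem/cerebellum on the log2 scale. For Hoxb7 it was -0.66 in spinal cord and 0.80 in brainstem/cerebellum. The difference between the tissues was not tested, since each value rests on 1 array per group, and in spinal cord the wild-type array lay on a slide of its own. No Hox gene outside group 7 met this condition.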

How the results depend on the processing

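No median over the Hox genes changed sign under any alternative. The median tissue difference in transgenic mice (0.74) was 0.38 with spike-in scaling, 0.54 with normexp and 0.88 with the laxer detection flag (positive and significant signal), which gave 1.40 in wild type (1.03). Restricted to genes detected on all 4 arrays, 7 genes in transgenic and 10 in wild-type mice were 2-fold higher in spinal cord, fewer by construction, where 7.91% and 7.69% of all genes were. For transgenic minus wild type in spinal cord, the median (-0.25) was -0.61 with spike-in scaling, -0.10 with normexp and -0.66 over genes detected on all 4 arrays. The count of lower genes (6) was 13 with spike-in scaling, 14 at 1.5-fold (20.1% of all genes) and 2 at 3-fold (2.66%), and 1 gene was higher at 1.5-fold (17.1%). Spike-in scaling put the median of all genes in that comparison at -0.42 and called 18.1% of all genes lower and 5.76% higher, and it put the median of all genes at -0.37 for the tissue difference in transgenic mice. The Hox median minus that of all genes in spinal cord (-0.19), which a shift of whole arrays cannot move, was -0.59 over genes detected on all 4 arrays, -0.27 with the authors' values and -0.15 with normexp. In brainstem/cerebellum the median (-0.10) was -0.26 with median scaling, which moved the median of all genes to -0.22. There 2 genes were higher with the laxer flag (7.77% of all genes), and 3 were higher (8.17%) and 1 lower (3.27%) at 1.5-fold. Over all genes, normexp called 228 higher and 23 lower in brainstem/cerebellum, against 790 and 153, and spike-in scaling called 4297 lower in spinal cord, against 2006. The cause was not tested. Of values for single genes, 879 moved by less than the technical spread or kept their call and 162 moved. The sign held under all scalings, corrections and probe choices for 29 of 33 genes (transgenic) and 33 of 34 (wild type) between tissues, but for 23 of 34 between genotypes in spinal cord and 15 of 20 in brainstem/cerebellum. No paired analysis was possible because each group had 1 array. Signals near background limit the bounds of faint genes.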

Other observations

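Beside the Hox clusters, the 10 listed ParaHox and neighbouring homeobox genes showed no shared tissue pattern. In transgenic mice 1 was at least 2-fold higher and 2 lower in spinal cord. By the same 2-fold rule none was higher and 1 lower in wild-type mice. Evx1, next to the Hoxa cluster, stood at -3.76 in transgenic and -2.69 in wild-type spinal cord, against -2.28 and -2.06 in transgenic and wild-type brainstem/cerebellum, so it was lower in spinal cord. Evx2, next to the Hoxd cluster, had tissue differences of 0.17 in transgenic and 0.78 in wild-type mice. The transgenic spinal cord minus brainstem/cerebellum difference of Dlx4, near the Hoxb cluster, was -1.15, and that of wild type was -1.85.

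Of 16 measured transcription factors of spinal neuron classes, 3 were at least 2-fold higher and 2 lower in spinal cord of transgenic mice, and 2 were higher and 2 lower in wild type. Isl2, a motor neuron factor, was higher in spinal cord by 1.86 in transgenic and at least 3.40 in wild-type mice. Lhx1 had tissue differences of -2.81 in transgenic and -2.37 in wild-type mice, and Gata3 of -1.20 and -2.17.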
